A study of Mus musculus with 10 samples.

Results

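Gata3, Klrg1, Areg, Pparg and Rora are 5 genes associated with tissue repair regulatory T cells (Tregs), and they were selected by gene name from the 54532 genes of the count table. All 5 were found, and all 5 were among the 21414 genes that passed the filter on low counts. Bulk RNA sequencing by Smart-seq2, which copies whole transcripts from few cells, had been run on colon Tregs sorted as CD45+CD3+CD4+CD25+GFP+. The group called Tumor held 5 libraries from colon tumours of Apc Min/+ mice that also carried Foxp3 DTR, and the group called WT held 5 libraries from colon of Foxp3 DTR mice without the Apc allele. All were labelled as male C57BL/6 mice aged 16 weeks. Apc Min is a truncating allele of the Wnt pathway inhibitor Apc, which gives rise to intestinal tumours. Foxp3 DTR places a diphtheria toxin receptor fused to GFP under control of the Treg gene Foxp3, so both groups carry it and the sort gate depends on Foxp3 expression. No toxin treatment is named in the labels, nor whether animals were pooled, how many cells were sorted, or whether each library of a group had its own animal. The p-values below therefore measure the spread between these libraries, which may be technical.

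As background, one population of tissue Tregs depends on the zinc finger transcription factor GATA3 and responds to the alarmin IL-33 through the receptor encoded by Il1rl1. These cells often carry the inhibitory receptor KLRG1, which binds cadherins on epithelial cells, and release amphiregulin, the Areg product, a growth factor that acts on the epidermal growth factor receptor and promotes repair. PPAR gamma and ROR alpha are nuclear receptors. PPAR gamma is best known in Tregs of visceral fat and is also abundant in colon epithelium, whereas ROR alpha is used by skin Tregs and by group 2 innate lymphoid cells.

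The promoters of Gata3 and Areg are shown because these genes rose together in Tumor libraries and both have a start site in the sequence set used (RefSeq, GRCm38.p6), which holds 4 of the 5 members and no entry for Klrg1. Each line gives the 250 bases before the start, 5′ to 3′ on the strand of the gene, with capitals marking a match to any of the motifs searched.
Gata3 promoter, chr2:9878601-9878850, minus strand: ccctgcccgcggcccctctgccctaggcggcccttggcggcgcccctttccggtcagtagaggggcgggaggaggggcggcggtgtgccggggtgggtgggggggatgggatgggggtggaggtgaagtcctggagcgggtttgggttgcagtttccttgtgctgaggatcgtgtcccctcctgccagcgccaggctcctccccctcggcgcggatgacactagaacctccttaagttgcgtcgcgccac
Areg promoter, chr5:91139349-91139598, plus strand: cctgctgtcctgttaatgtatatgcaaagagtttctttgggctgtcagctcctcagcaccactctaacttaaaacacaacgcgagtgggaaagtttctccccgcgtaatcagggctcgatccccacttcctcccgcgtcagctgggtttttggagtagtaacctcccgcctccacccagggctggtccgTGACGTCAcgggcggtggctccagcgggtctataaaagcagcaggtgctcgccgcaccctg
Both strands were searched for 4 GATA motifs, which were AGATAA with its variant TGATAA as well as the form AGATAG with its variant TGATAG, and for the cAMP response element TGACGTCA, the AP-1 motif TGANTCA and the nuclear receptor motif AGGTCA. Of 32851 promoter windows of the same length, 26.5% held a GATA motif, 1.55% the cAMP response element, 6.75% the AP-1 motif and 4607 windows AGGTCA. The Areg window held 1 cAMP response element, which begins 61 bases before the start. The Gata3 window held no match to any of them, and had a GC content of 70.0% against 57.2% for Areg. The window of Rora held 1 GATA motif, and 2 of the 3 Pparg windows held 1 AGGTCA each. The Gata3 window lies inside the Gata3 gene as annotated, which extends to an upstream start, and inside the antisense gene model Gm13256.

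Library facts bear on every value below. The total count of a library was 3054435 to 7747699 for Tumor and 1676229 to 8412887 for WT. The 8 genes that define the sorted cells (Foxp3, Il2ra, Ctla4, Ikzf2, Tnfrsf18, Cd4, Cd3e and Ptprc) summed to 3235 to 6169 CPM (reads scaled to a common library size) in Tumor and 142 to 1610 in WT, and 2 of the 8 were called higher in Tumor. For 14 pan-T genes, such as Cd3d, Lck and Cd4, the summed level was 4307 to 6819 CPM in Tumor and 164 to 1504 in WT. In bulk samples, fewer T cells and less RNA per T cell cannot be told apart. Sums of 16 colon epithelial genes reached 27146 and 34985 CPM in WT replicates 1 and 2, while WT replicates 3 to 5 had 172 to 260 CPM and Tumor libraries 45.2 to 5333 CPM. edgeR called 0 of these 16 genes (8 at an unadjusted p below 0.05, all lower in Tumor). As a gauge of background reads, 1464 olfactory and vomeronasal receptor genes, normally silent in lymphocytes, gave 2.33 to 5.33 CPM per kilobase in WT replicates 3 to 5, and the other 7 libraries had 0.836 to 2.20. Results are therefore given on all libraries with TMM scaling (trimmed mean of M values), beside the value when each library is scaled to its own pan-T genes and beside the values without WT replicates 1 and 2 or without WT replicates 3, 4 and 5. The last of these fits keeps only WT replicates 1 and 2, with pan-T sums of 164 and 527 CPM, and called 1325 of 30040 genes. For a T cell gene, a call in that fit cannot be told apart from the difference in T cell content.

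Of the 5 genes, Gata3, Klrg1 and Areg rose in Tumor, and Rora and Pparg did not pass the test. In the edgeR quasi-likelihood test with Benjamini-Hochberg adjustment over all genes, an adjusted p below 0.05 was reached by 1.59% of all tested genes, 1.37% being higher and 0.219% lower in Tumor. The groups did not overlap in Gata3, Klrg1 and Areg, which was true of 5.94% of all tested genes and, in the upward direction, of 4.38%. Klrg1 also passed with pan-T scaling, where 0.0794% of genes were called higher and 91.4% lower. The macrophage genes Lyz2, Apoe, C1qa and C1qb were among those called higher, so such a call is not particular to T cell genes.

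**Figure D1:**
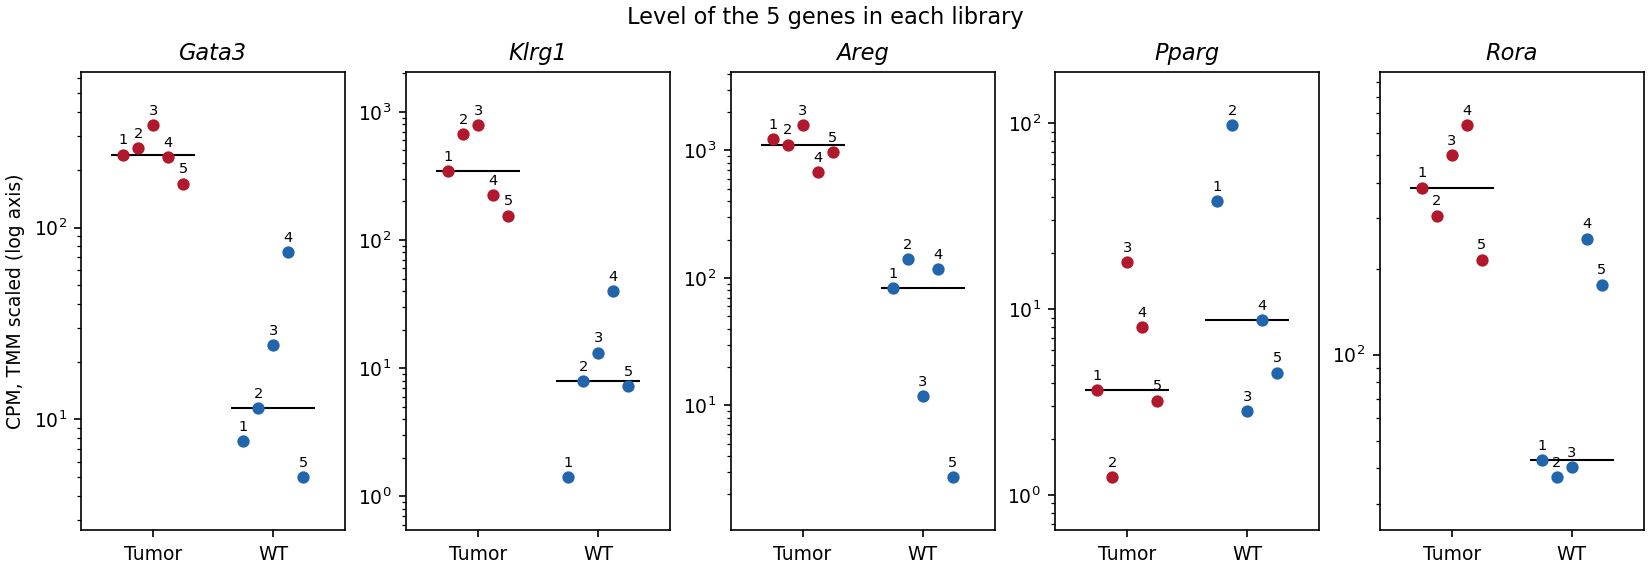
Level of each gene in each library, in TMM-scaled CPM on a log axis that differs between panels; numbers are replicates and bars are group medians. The 5 Tumor libraries lie above the 5 WT libraries for Gata3, Klrg1 and Areg, and the groups overlap for Pparg and Rora.

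Gata3 (ENSMUSG00000015619, chromosome 2, 9857078 to 9890034, minus strand, mm10), the transcription factor of the set, stood at 239, 259, 342, 232 and 169 CPM in Tumor replicates 1 to 5. The WT replicates 1 to 5 had 7.72, 11.5, 24.4, 74.6 and 4.99 CPM. Every Tumor library was thus above every WT library, and WT replicate 4 stood apart from the other WT libraries. The group means were 248 ± 62.2 and 24.6 ± 28.9 CPM (SD, n = 5 each), a log2 fold change of 3.33 ± 0.74 (SE, edgeR adjusted p = 0.0283). Behind these values were 625 to 2106 reads in each Tumor library, whereas WT libraries held 11 to 205. In WT replicates 1 and 5 the 33 and 11 reads were no more than the 38.9 and 30.2 that the density over receptor genes would give for a gene of this exon length (3978 bases), so Gata3 was not detectable above that level there. The call of Gata3 was lost in 6 of 10 fits that left out 1 library (Tumor replicates 1 to 4 and WT replicates 1 and 3), with log2 fold changes of 3.03 to 4.36 and adjusted p up to 0.0975. It was kept without WT replicates 1 and 2 (2.81 ± 0.73, edgeR adjusted p = 0.0203) and without WT replicates 3, 4 and 5 (4.67 ± 0.58, adjusted p = 6.23e-06). In WT replicates 1 and 2, the only WT libraries of the second fit, Gata3 was at 0.848 and 2.37 times the receptor gene density.

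Klrg1 (ENSMUSG00000030114, chromosome 6, 122270596 to 122282882, minus strand), the cadherin-binding receptor gene, had the largest fold change of the 5. Its Tumor values were 345, 671, 788, 223 and 154 CPM, and its WT values were 1.40, 7.88, 13.1, 39.7 and 7.26 CPM. Tumor replicates 2 and 3 were highest and replicate 5 lowest, a 5.10-fold range within the group, yet the lowest Tumor library was above the highest WT library. The means of 436 ± 279 and 13.9 ± 15.01 CPM (SD, n = 5 each) gave a log2 fold change of 4.98 ± 0.89 (SE, edgeR adjusted p = 0.00929). The call was kept in all 10 fits that left out 1 library, with log2 fold changes of 4.61 to 5.87 and adjusted p of 0.00616 to 0.0408. It was also kept without WT replicates 1 and 2 (4.43 ± 0.83, adjusted p = 0.00387) and without WT replicates 3, 4 and 5 (6.44 ± 0.98, adjusted p = 0.000898). WT replicate 1 held 6 Klrg1 reads, below the 13.8 that the receptor gene density would give, and 3 of 5 WT libraries were within 3 times that density. Subtracting that background from every gene ended the calls of Klrg1 (4.29, adjusted p = 0.284), Gata3 (2.86, adjusted p = 0.747) and Areg (3.41, adjusted p = 0.358), and left 0 genes called by edgeR, with 734 at an unadjusted p below 0.05.

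Areg (ENSMUSG00000029378, chromosome 5, 91139599 to 91148432, plus strand), the growth factor gene whose promoter window held the cAMP response element, had the highest mean level per kilobase of the 5 in both groups. Tumor libraries had 1226, 1107, 1581, 676 and 967 CPM, and WT libraries had 83.3, 140.8, 11.7, 116 and 2.72 CPM. The WT libraries fell into high values in replicates 1, 2 and 4 and low values in replicates 3 and 5, all under the lowest Tumor library. Mean levels were 1112 ± 333 and 71.0 ± 61.8 CPM (SD, n = 5 each), a log2 fold change of 3.97 ± 0.93 (SE, edgeR adjusted p = 0.0363). WT replicates 1 and 2 were the libraries rich in epithelial genes, and WT replicate 4, with 116 CPM of Areg, had 172 CPM over the 16 epithelial genes. The part of epithelial RNA in the WT level of Areg was not tested. The fold change was 4.62 ± 1.01 without WT replicates 1 and 2 (adjusted p = 0.00884) and 3.28 ± 0.51 without WT replicates 3, 4 and 5 (adjusted p = 9.53e-05). With 1 library left out, the call was lost in 7 of 10 fits (each Tumor replicate, and WT replicates 1 and 3), with log2 fold changes of 3.66 to 4.39 and adjusted p up to 0.107.

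Rora (ENSMUSG00000032238, chromosome 9, 68653786 to 69388246, plus strand), the ROR alpha gene, spans 734461 bases and had the longest exon length of the set, 13071 bases. Its Tumor values were 384, 306, 499.6 and 637 CPM in replicates 1 to 4 and 215 CPM in replicate 5. The WT values were 42.6, 37.2, 40.4, 255 and 176 CPM, so WT replicates 1 to 3 were low and WT replicate 4 was above Tumor replicate 5. The means were 408 ± 165 and 110 ± 100.1 CPM (SD, n = 5 each), and the log2 fold change of 1.89 ± 0.71 (SE) did not pass (edgeR adjusted p = 0.203). Without WT replicates 3, 4 and 5 it was 3.37 ± 0.54 and passed (adjusted p = 0.000128), and without WT replicates 1 and 2 it was 1.39 ± 0.66 (adjusted p = 0.210). Because the exons are long, reads at the receptor gene density came to 70.3%, 42.8%, 136%, 11.7% and 25.6% of the Rora reads in WT replicates 1 to 5, so the WT libraries in the fit without WT replicates 3, 4 and 5 held 1.42 and 2.33 times that density. In Tumor this share was 2.75 to 12.3%.

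Pparg (ENSMUSG00000000440, chromosome 6, 115360951 to 115490399, plus strand), the PPAR gamma gene, was the member near background in Tumor. Reads per Tumor library were 13, 3, 110, 45 and 14, or 3.65, 1.24, 17.9, 7.99 and 3.21 CPM. WT libraries had 162, 707, 6, 24 and 10 reads, or 37.9, 97.7, 2.82, 8.73 and 4.54 CPM. WT replicates 1 and 2 were above every Tumor library, and WT replicates 3 to 5 lay within the Tumor range. In 3 Tumor libraries and 2 WT libraries the reads were at or below the receptor gene density, so Pparg was not detectable above that level in these 5 libraries. The log2 fold change was -2.15 ± 0.93 (SE) and did not pass (edgeR adjusted p = 0.264). It turned to 0.34 ± 1.20 without WT replicates 1 and 2 (adjusted p = 0.905), and was -3.34 ± 0.72 without WT replicates 3, 4 and 5 (adjusted p = 0.00356).

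**Figure D2:**
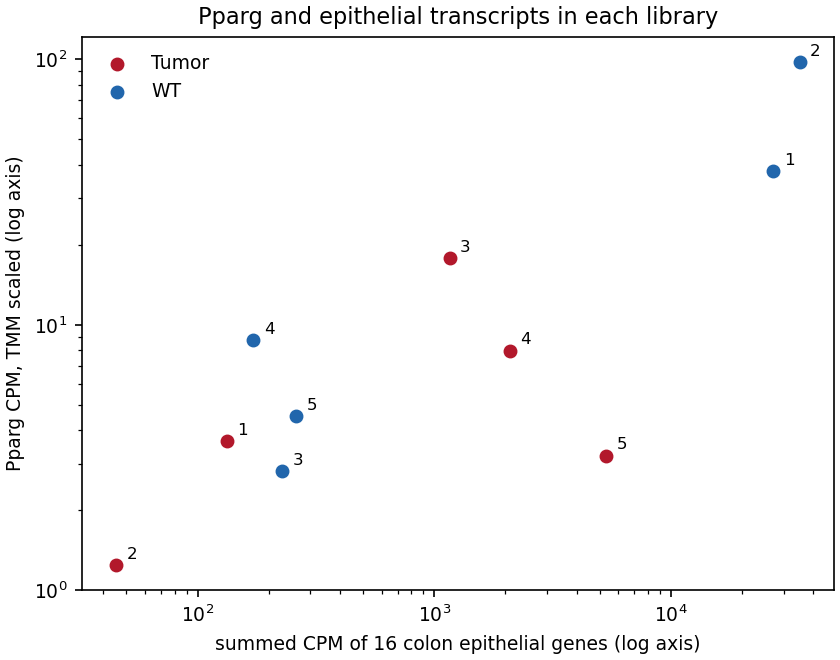
Pparg in TMM-scaled CPM against the summed CPM of 16 colon epithelial genes in the same library, both on log axes, with replicate numbers beside the points. WT replicates 1 and 2 have the highest values on both axes, and Tumor replicate 5, next on the epithelial axis at 5333 CPM, has 3.21 CPM of Pparg.

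The 3 genes most like Pparg across the 10 libraries were Cryl1, Trim16 and Myo1d, by the mean absolute difference between profiles of log2(CPM + 1), each centred on its own mean. The differences were 0.42, 0.56 and 0.56 log2 units, against a median of 1.49 over 12165 candidate genes. Cryl1 had 161 and 221 CPM in WT replicates 1 and 2 and 6.22 to 48.5 CPM in the other 8 libraries, and all 3 genes had negative log2 fold changes that did not pass. Among epithelial genes, the chloride exchanger gene Slc26a3 had 2244 and 3096 reads in WT replicates 1 and 2 and 0 to 128 in the other 8 libraries. Other epithelial genes also had many reads in some Tumor libraries. Krt8 had 17411 and 52928 reads in WT replicates 1 and 2 and 5650 in Tumor replicate 5. Muc2 had 23848 and 41499 in WT replicates 1 and 2 and 4341 in Tumor replicate 4. The part of epithelial RNA in the Pparg values was not tested beyond leaving those 2 libraries out.

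Levels were next set against the T cell content of the same library, as the reads of a gene divided by the geometric mean of the reads of the 14 pan-T genes. For Gata3 this ratio was 0.745, 0.658, 0.634, 0.680 and 0.722 across Tumor replicates 1 to 5. The WT ratios were 0.554, 0.294, 0.393, 0.788 and 0.239. The Tumor libraries were close together, and WT replicate 4 was above all of them. With pan-T scaling the log2 fold change of Gata3 was 0.60 ± 0.73 (SE) and did not pass (edgeR adjusted p = 0.425). For Klrg1 the ratios were 1.07, 1.703, 1.46, 0.654 and 0.659 in Tumor and 0.101, 0.202, 0.212, 0.419 and 0.348 in WT, again without overlap, which in the upward direction was true of 0.126% of all genes tested. Its log2 fold change under this scaling was 2.11 ± 0.77 (adjusted p = 0.0127).

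For Areg the ratios were 3.82, 2.81, 2.93, 1.98 and 4.13 in Tumor and 5.97, 3.61, 0.189, 1.23 and 0.131 in WT, so the groups overlapped. The pan-T scaled log2 fold change of Areg was 0.49 ± 0.997 (adjusted p = 0.629). The Rora ratio was 0.778 to 1.87 in Tumor and 0.650 to 8.42 in WT, and the log2 fold change of Rora turned from 1.89 to -1.47 ± 0.91, which did not pass (adjusted p = 0.122). The Pparg ratio was 0.00316 to 0.0331 in Tumor and 0.0453 to 2.72 in WT, without overlap, and its log2 fold change was -6.01 ± 1.14 (adjusted p = 0.000460). Of all genes tested, 41.6% had a lower ratio in every Tumor library than in every WT library, and 91.4% were called lower. Pparg reads were at or below the receptor gene density in 5 of the 10 libraries, where its ratio follows the pan-T reads in the denominator. Over all genes tested, this scaling moved the median log2 difference from -0.20 to -3.70. Relative to that median, the values on TMM and pan-T scaling were 3.53 and 4.29 for Gata3, 5.17 and 5.81 for Klrg1, 4.16 and 4.19 for Areg, 2.09 and 2.23 for Rora, and -1.95 and -2.31 for Pparg. Subtracting the median takes out most of the shift between the scalings, so the closeness of these pairs is no test of either.

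**Figure D3:**
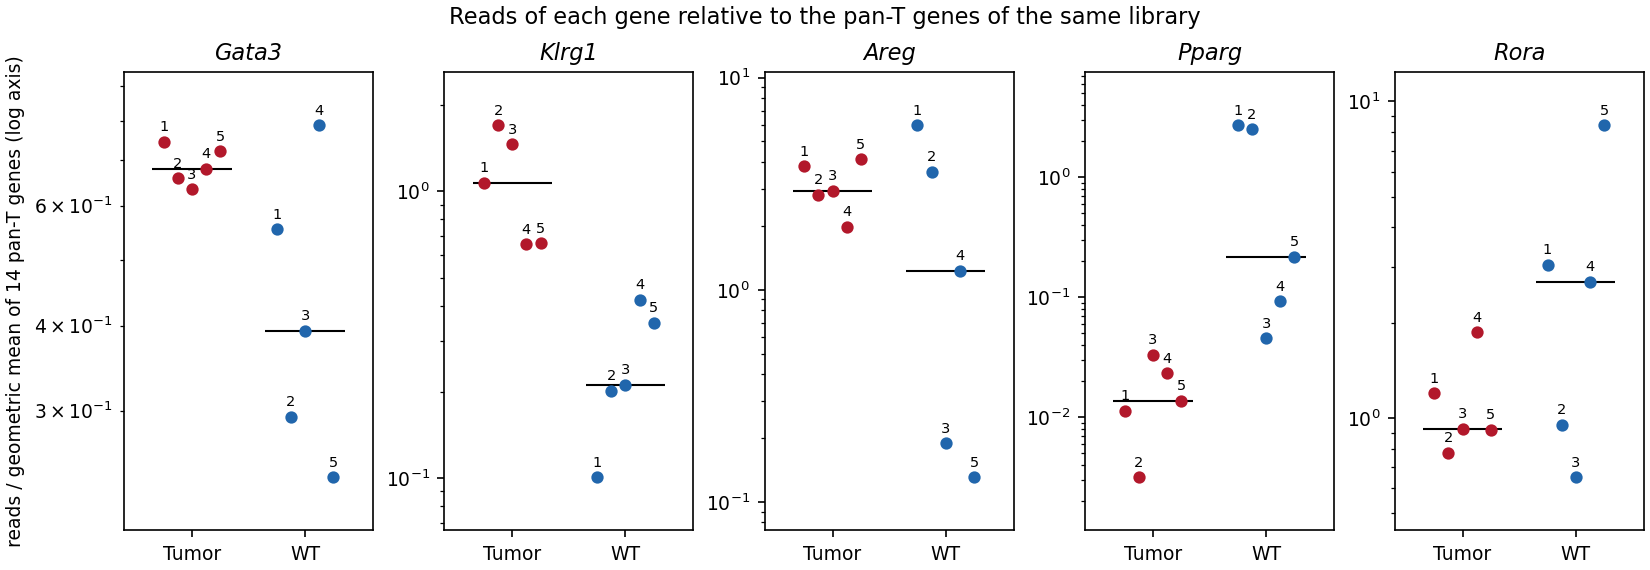
Reads of each gene divided by the geometric mean of the reads of 14 pan-T genes in the same library, on log axes that differ between panels; numbers are replicates and bars are group medians. Klrg1 lies higher in all 5 Tumor libraries, while Gata3, Areg and Rora overlap between the groups; Pparg lies lower in Tumor, as do 41.6% of all genes tested, with reads at or below the receptor gene density in 5 of 10 libraries.

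**Figure D4:**
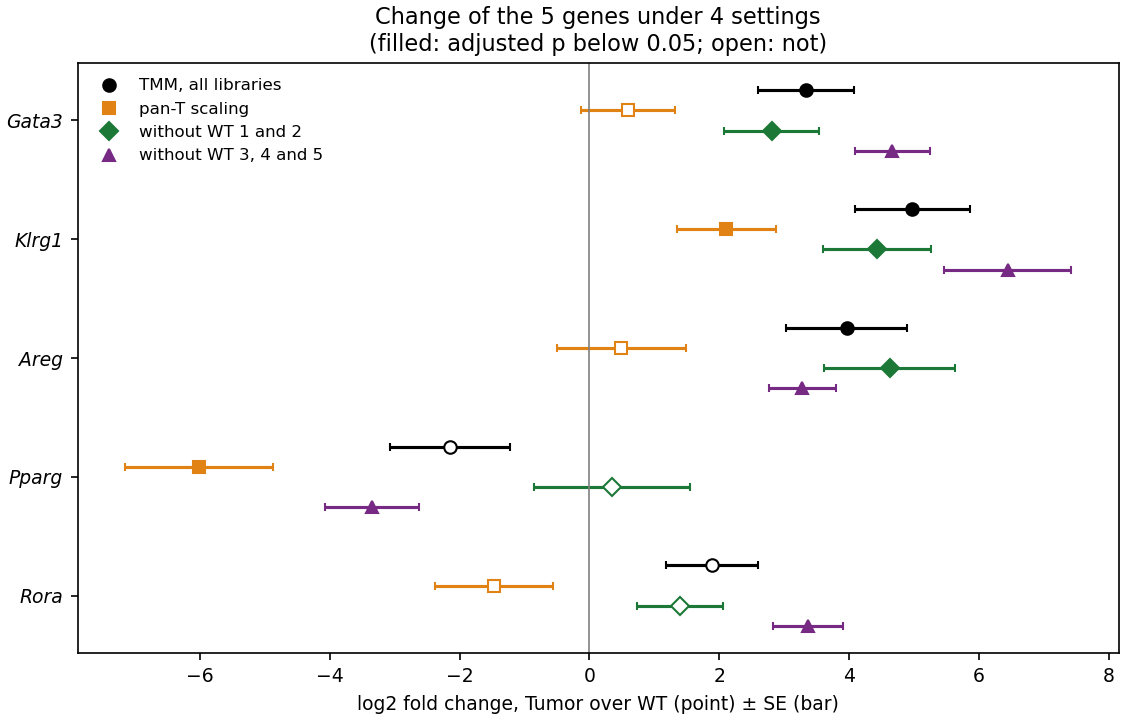
Log2 fold change of Tumor over WT (points) with its SE (bars) for each gene under 4 settings, filled where the adjusted p was below 0.05. Klrg1 is filled under all 4 settings, Gata3 and Areg are open with pan-T scaling, Rora turns negative with pan-T scaling, and Pparg turns positive without WT replicates 1 and 2.

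Set against Foxp3 itself, which had 285, 259, 910, 208 and 387 reads in Tumor and 40, 28, 14, 109 and 52 in WT, the ratio of Klrg1 to Foxp3 reads was 1.74 to 6.25 in Tumor and 0.150 to 2.04 in WT. The Gata3 ratio was 1.90 to 6.29 in Tumor and 0.212 to 3.71 in WT. For Areg it was 10.3 to 18.3 in Tumor and 0.115 to 36.4 in WT. The Foxp3 reads of WT replicates 2 and 3 were below the 35.2 and 35.6 that the receptor gene density would give for Foxp3, and the 40 reads of WT replicate 1 were next to 39.0, so these 3 ratios have a denominator at background. The overlap came from WT replicates 2 and 3 for Gata3 and Klrg1, and from WT replicate 2 alone for Areg. Over the other 3 WT libraries, a restriction chosen after the values were seen, the ratio was at most 1.88 for Gata3, 1 for Klrg1 and 8.90 for Areg, each below the lowest Tumor ratio. The ranges still overlapped for Rora (4.55 to 7.44 in WT, 2.42 to 17.3 in Tumor) and Pparg (0.192 to 4.05 and 0.0116 to 0.216). These libraries include WT replicate 1, with its denominator at background. The share of all genes that would separate in this way was not computed, so no result is drawn from it. The log2 fold change of Foxp3, 2.48 ± 0.64 (SE), missed the threshold (edgeR adjusted p = 0.0560).

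Within a library, levels were compared per kilobase of exon. In 5 of 5 Tumor libraries the order was Areg, Klrg1, Gata3, Rora and Pparg from high to low. Mean levels in Tumor were 915 ± 274, 309 ± 197, 62.4 ± 15.6, 31.2 ± 12.6 and 2.30 ± 2.25 CPM per kilobase (SD, n = 5). Each neighbour in that order differed in the same direction in all 5 libraries, the closest being Gata3 over Rora by 0.26 to 1.47 log2 units. In WT the order held in 1 of 5 libraries (replicate 3), Areg ranked first in replicates 1 to 4, and Rora ranked first in replicate 5. The ratio of Gata3 to Areg per kilobase varied with an SD of 0.37 log2 units among Tumor libraries and 2.27 among WT libraries. The WT orders and this WT spread include libraries at background, since Gata3 in WT replicates 1 and 5, Klrg1 in replicate 1, Areg in replicate 5, Rora in replicate 3 and Pparg in replicates 3 and 5 were at or below the receptor gene density. Gata3 was the steadiest member in Tumor, with an SD of log2 CPM of 0.36, followed by Areg at 0.45, Rora at 0.61, Klrg1 at 1.01 and Pparg at 1.45.

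By the same measure of likeness, the genes closest to Gata3 were Samsn1, an adaptor gene of lymphocytes, Cd52, a surface glycoprotein gene of lymphocytes, and the class Ib MHC gene H2-Q7, at 0.21, 0.24 and 0.24 log2 units (median over candidates 2.02). Those closest to Klrg1 were Rgs2, a regulator of G protein signalling, Tnfrsf4, which encodes the costimulatory receptor OX40, and Lgals1, which encodes galectin-1, at 0.40, 0.44 and 0.54 (median 2.56). Closest to Areg were Hilpda, a lipid droplet gene, Zfp36l1, an RNA-binding protein gene, and Tmem173, which encodes STING, at 0.58, 0.62 and 0.64 (median 2.39). Rora was closest to the kinase gene Cdk17, the laminin gene Lamc1 and the integrin gene Itgav, at 0.32, 0.35 and 0.35 (median 1.47). The genes closest to Gata3, Klrg1 and Areg were all called higher in Tumor, with edgeR log2 fold changes from 3.15 for Samsn1 to 4.58 for Hilpda, and the 3 closest to Rora did not pass. These profiles share library, depth and group, and H2-Q7 has near-identical relatives whose reads may be split.

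Among 22 other genes of the tissue Treg programme, 6 rose and 0 fell, where 1.37% of all genes tested were called higher. Their median log2 fold change was 2.36 against -0.20 over all genes tested. The rises were Penk, the enkephalin precursor (7.67 ± 1.21), the chemokine receptor gene Ccr8 (6.31 ± 0.94), Tnfrsf4 (4.20 ± 0.86), Id2, an inhibitor of basic helix-loop-helix factors (3.91 ± 0.79), the repressor gene Prdm1 (2.92 ± 0.57) and Itgae, which encodes the integrin chain CD103 (2.68 ± 0.57). Of the 14 pan-T genes 7 were called higher, with a median of 2.86, so a rise was not particular to genes of the tissue Treg programme. Il1rl1, the IL-33 receptor gene, had 221, 233, 361, 192 and 170 CPM in Tumor and 6.32, 5.80, 73.7, 82.3 and 10.9 CPM in WT. The groups did not overlap, and its log2 fold change of 2.72 ± 0.77 did not pass (edgeR adjusted p = 0.0859). The AP-1 factor gene Batf (2.23 ± 0.77, adjusted p = 0.161), its partner Irf4 (2.65 ± 0.74, adjusted p = 0.0812) and the Helios gene Ikzf2 (2.13 ± 0.67, adjusted p = 0.127) did not pass either. With pan-T scaling the median of this list was -0.81 against -3.70 over all genes tested. Under that scaling Ccr8 and Penk were called higher and 5 of the 22 genes lower, where 91.4% of all genes tested were called lower.

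**Figure D5:**
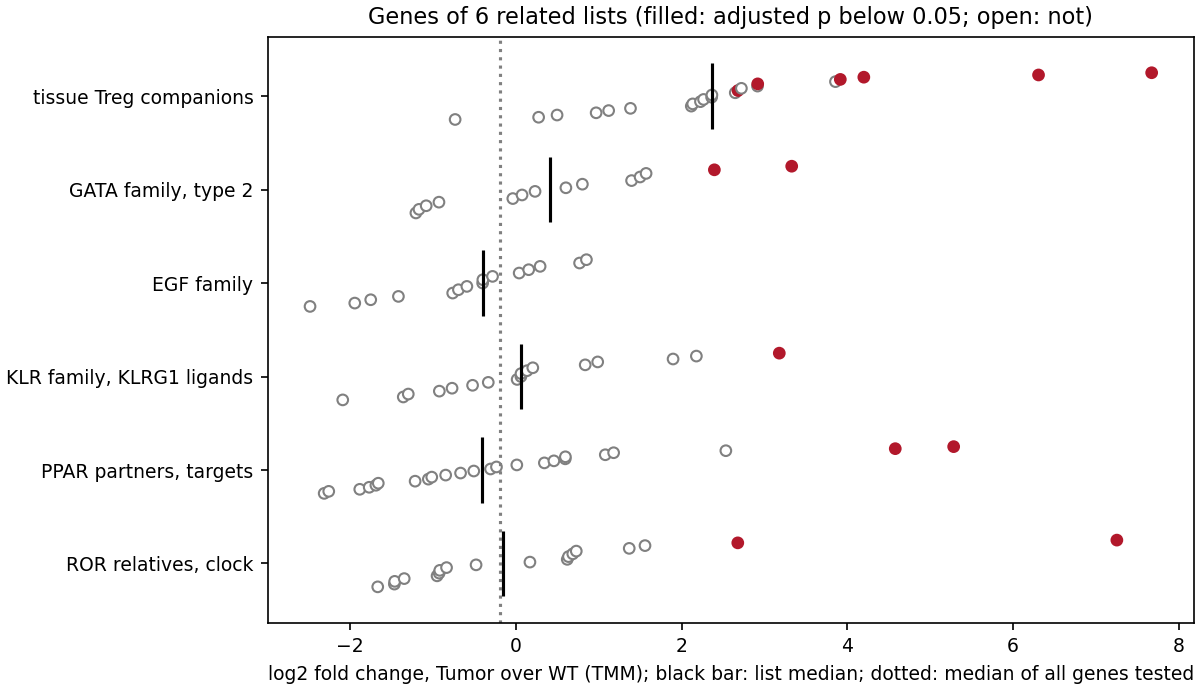
Log2 fold change (Tumor over WT, TMM) of the tested genes of 6 related lists, filled where the adjusted p was below 0.05, with the list median as a black bar and the median of all tested genes as a dotted line. The median of the tissue Treg companions is 2.36 and the other 5 medians lie between -0.41 and 0.42; with pan-T scaling, not drawn, these are -0.81 and -4.05 to -2.95, and the median of all tested genes is -3.70.

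Of 14 tested genes of the GATA family and of type 2 immunity, 2 rose and 0 fell (median 0.42), the cytokine receptor genes Il2rg (3.33 ± 0.78) and Il4ra (2.39 ± 0.56). The other GATA factor genes, Gata1, Gata2, Gata4, Gata5 and Gata6, had 0 to 88 reads each in a Tumor library. Among 17 tested killer cell lectin-like receptor genes, cadherin ligands of KLRG1 and its phosphatases, Klrc1, an NKG2 receptor gene, alone rose (3.18 ± 0.75, adjusted p = 0.0362; list median 0.06). Its reads numbered 36 to 254 in Tumor and 2 to 34 in WT, against 673 to 4854 Tumor reads of Klrg1. Cdh1, the E-cadherin gene and a KLRG1 ligand made by epithelium, had 14, 0, 155, 333 and 317 reads in Tumor and 1032, 3075, 4, 30 and 17 in WT (-2.09 ± 1.35, adjusted p = 0.456). These levels were high in the libraries rich in epithelial genes, a list that itself includes Cdh1.

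Of 15 tested EGF family ligand, receptor and sheddase genes, 0 were called by the edgeR quasi-likelihood test (3 at an unadjusted p below 0.05, Egfr, Erbb2 and Erbb3, all lower in Tumor). DESeq2 called 3 of the 15 lower, where it called 969 of all 21414 tested genes lower. Areg was not counted in this list, and its relatives Ereg and Epgn had too few reads to be tested. Hbegf, the heparin-binding ligand gene, had 264, 117, 583, 254 and 629 reads in Tumor and 904, 2639, 5, 74 and 15 in WT (-0.59 ± 0.91, adjusted p = 0.775). Egfr, which encodes the amphiregulin receptor, had 7.46 to 18.5 CPM in Tumor and 23.8 to 118 CPM in WT. The groups did not overlap, as held in the downward direction for 336 of the 21414 tested genes. The log2 fold change, -1.75 ± 0.59, missed the threshold (adjusted p = 0.150). Egfr has long exons (11326 bases), and its counts were 18 to 97 in Tumor and 74 to 252 in WT. For Rora, with 13071 bases, the receptor gene density would give 51.1 to 115 reads in Tumor and 82.1 to 128 in WT. Whether Egfr stood above that density was not tested, so no receptor expression is read from the separation. The sheddase gene Adam17, which releases amphiregulin from the membrane, did not pass (0.77 ± 0.47, adjusted p = 0.423).

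Around Pparg, 2 of 24 tested partner and target genes rose and 0 fell (median -0.41). These were Fabp5, a fatty acid binding protein gene (5.28 ± 0.76, adjusted p = 0.00395), and Hilpda (4.58 ± 0.86, adjusted p = 0.0131). Rxra, the partner receptor gene, did not pass (-0.85 ± 0.55, adjusted p = 0.455). Around Rora, 2 of 18 tested ROR relatives, clock genes and ROR targets rose and 0 fell (median -0.16), the cytokine gene Il17a (7.25 ± 0.93, adjusted p = 0.00341) and the cytokine signalling inhibitor gene Socs3 (2.68 ± 0.59, adjusted p = 0.0282). Il17a had 0 to 5 reads per WT library and 49 to 1201 in Tumor libraries. With pan-T scaling, where the median of all genes tested was -3.70, Il17a kept its call (4.44 ± 1.28, edgeR adjusted p = 0.00322). The log2 fold changes of Fabp5 (1.63 ± 0.80, adjusted p = 0.0545) and Hilpda (1.02 ± 0.86, adjusted p = 0.252) stayed positive and lost theirs, and that of Socs3 was -0.41 ± 0.85 (adjusted p = 0.639). DESeq2 called 3 of the 24 Pparg partners and targets higher and 4 lower, where it called 682 of all 21414 tested genes higher and 969 lower.

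Other cells of colon express some of the 5 genes, and their markers were measured in the same libraries. A CD3+CD4+CD25+GFP+ gate is meant to exclude innate lymphoid cells, NK cells, CD8 T cells, macrophages and mast cells. How far the sort did so was not tested. Group 2 innate lymphoid cells share Gata3, Klrg1, Areg and Rora with repair Tregs. The sum of their 10 markers was 324 to 441 CPM in Tumor and 63.1 to 455 in WT, and edgeR called 0 of 7 tested markers (2 at an unadjusted p below 0.05, Arg1 and Il1rl1, the second of which Tregs also express). Their cytokine genes had few reads, Il13 having 0 to 28 and Il5 0 to 39 per Tumor library. NK and cytotoxic T cells also express Klrg1. Of 9 tested markers 3 rose, Gzma (4.91 ± 0.996), Nkg7 (3.95 ± 0.88) and Gzmb (3.72 ± 0.93), with summed levels of 299 to 1761 CPM in Tumor and 35.3 to 286 in WT. The NK genes Ncr1, Klrb1c and Eomes had 0 to 28, 1 to 40 and 0 to 13 reads per Tumor library. Klre1 and Prf1 had 0 to 83 and 14 to 148. Cd8a had 421 reads in Tumor replicate 4, where Klrg1 stood at 223 CPM, and 0 to 40 in the other 4. Cd8b1 had 178 reads in Tumor replicate 3, where Klrg1 stood at 788 CPM, and 14 to 53 in the other 4. Cd8b1 also reached an unadjusted p below 0.05 (1.96 ± 0.86, edgeR adjusted p = 0.270). Of 11 tested macrophage and monocyte markers 5 rose (Apoe, Lyz2, C1qa, C1qb and C1qc), with summed levels of 1319 to 6015 CPM in Tumor and 68.2 to 163 in WT. With pan-T scaling Apoe (3.64), Lyz2 (3.12), C1qa (2.51) and C1qb (2.10) kept their calls, as Klrg1 did, and C1qc (0.61) did not. The part of these cells in the levels of the 5 genes was not tested. Of 7 tested mast cell and basophil markers edgeR called 0 (0 at an unadjusted p below 0.05), with sums of 67.9 to 168 CPM in Tumor and 58.6 to 393 in WT.

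Counting without strand would mix reads of overlapping genes, and the strand setting is not given in the sources used here. The 3 gene models that overlap Gata3 held 3 to 32 reads each over the 5 Tumor libraries, the antisense model at Rora 26, and that at Pparg 43 in Tumor and 99 in WT. For Gata3 and Rora these Tumor numbers are small beside the reads of the genes themselves. Over the 5 WT libraries the models at Gata3 held 7, 17 and 12 reads, where Gata3 had 11 to 205 per library. The model at Rora held 4. How many reads were mixed or left out where genes overlap was not tested. For Klrg1 and Areg the table holds no overlapping gene.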

How the data were processed

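The authors deposited 1 table of raw counts, with no normalization. Per the submitters' processing notes, HISAT2 2.0.5, featureCounts 1.5.0-p3 and build mm10 were used. Annotation release, strandedness and handling of multi-mapping reads are not given in the sources used here; for the 5 genes, coordinates and exon lengths equalled those of GENCODE M21. Groups and replicate numbers came from the sample titles. The 10 single-sample files equalled the table. The smallest chi-square per degree of freedom over 45 library pairs was 25.7, so all libraries counted separately. Reads carry no molecular identifiers, so copies made by amplification could not be removed and their error remains in the counts.

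Analysis used R 4.3.3 and edgeR 4.0.16: filterByExpr (minimum count 10, minimum total 15), TMM, a robust quasi-likelihood F test (2-sided, group only), Benjamini-Hochberg adjustment over 21414 genes, called below 0.05. The biological coefficient of variation was 86.1%. The SE is the log2 fold change divided by the square root of F. Single-gene CPM are TMM scaled, and summed marker CPM use library totals. Pan-T scaling used the geometric mean of reads plus 0.5 over 14 genes. On simulated data with the common dispersion, the procedure recovered 8.955% of 4-fold, 80.6% of 16-fold and 100% of 64-fold changes. A change near 4-fold that did not pass is therefore not evidence of no change. Of the 125 calls on simulated data 1.6% were false. Those data held no library differences in epithelial RNA, T cell content or background reads, so this share need not hold for the real libraries. The receptor density comes from reads over olfactory and vomeronasal receptor genes per exon length. Members, lists, tests and alternatives, among them DESeq2 1.42.0 and limma 3.58.1, were chosen with earlier results of these data known. Named genes were the members, up to 6 called genes of each list, a fixed set of partner genes, and the 3 most similar profiles (protein coding, mean of at least 10 CPM); genes named as overlapping, marker or family examples (among them Hbegf, Adam17, Slc26a3 and Cd8a) were chosen after their values were seen. One planned gene list and 1 gene are not reported here.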

Additional observations from a re-analysis of the deposited data

Results flagged for a closer look

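Among the 10 groups of 5 values of the 5 genes, 1 held a library far from the others. Gata3 in WT replicate 4 stood at 74.6 CPM, and the nearest WT library had 24.4 CPM, a gap of 0.721 of the whole WT range. Chance alone places about 1 in 20 groups past the limit used (the 95% critical value of Dixon's test). The same library also had the highest WT values of Klrg1 (39.7 CPM), Rora (255 CPM) and Foxp3 (39.7 CPM).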

How the results depend on the processing

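The directions of Gata3, Klrg1 and Areg held under every alternative run. Pan-T scaling took the call from Gata3 (0.60) and Areg (0.49), gave one to Pparg (-6.01) and reversed Rora (-1.47). Subtracting a length-proportional background took the calls from Gata3 (2.86), Klrg1 (4.29) and Areg (3.41), leaving 0 of 5 members and 0 of 11694 genes called by edgeR (734 at an unadjusted p below 0.05). Adding the replicate block took the call from Areg (4.76, adjusted p = 0.0874), kept those of Gata3 and Klrg1, and gave 141 genes; same-numbered libraries did not deviate together (correlations from -0.20 to 0.03, 0 of 5 best with their own number), so the number is not taken as a pairing. Without WT replicates 1 and 2 Pparg reversed (0.34) and 1993 genes were called; without WT replicates 3, 4 and 5 Rora (3.37) and Pparg (-3.34) passed, so 5 of 5 members and 1325 genes were called. Leaving out 1 library gave 3.03 to 4.36 for Gata3, 4.61 to 5.87 for Klrg1, 3.66 to 4.39 for Areg, 1.63 to 2.48 for Rora and -2.84 to -0.89 for Pparg, with 1 to 3 members and 65 to 417 genes called. The 340 genes became 19581 with pan-T scaling (17 higher, 19564 lower), 1651 with DESeq2 (682 higher, 969 lower), 768 with quality-weighted limma voom and 820 with no filter (479 higher, 341 lower). Against 293 higher and 47 lower on TMM, RLE size factors gave 211 and 59. List counts moved as follows. With pan-T scaling, all lower in Tumor except Il17a, they were 15 for the EGF family, 11 for GATA and type 2, 14 for lectin-like receptors, 21 for PPAR partners and 16 for ROR and clock. With DESeq2 they were 3 for the EGF family (all lower), 7 for PPAR partners (3 higher, 4 lower) and 14 for tissue Treg companions (all higher). With RLE size factors they were 0 for GATA and type 2 (edgeR), 0 for lectin-like receptors and 1 for ROR and clock. The causes were not tested. Pparg has no value with a minimum of 10 CPM in 5 libraries or with the background subtracted, since it did not pass those filters.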

Other observations

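Markers of further cell types were measured in the same libraries. B cell and plasma cell markers (10 genes) summed to 64.2 to 444 CPM in Tumor and 87.5 to 3801 in WT, dendritic cell markers to 413 to 852 CPM in Tumor and 62.4 to 524 in WT, and markers of fibroblasts, endothelial cells and adipocytes to 80.5 to 237 CPM in Tumor and 111 to 351 in WT. Of these 3 lists edgeR called 0 genes, of 6, 9 and 9 tested, and 0, 4 and 0 were at an unadjusted p below 0.05.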
